A study of Mus musculus with 13 samples.

Results

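The genes described here are 47 type I interferon-stimulated genes, followed in the midbrains of 13 male mice. They were given as a list of symbols, and each of the 47 matched 1 of the 49315 genes in the deposited count tables. All carried the floxed Ripk3 allele in both copies (Ripk3fl/fl) and were 8 to 12 weeks old. All, controls included, had received tamoxifen at 60 mg/kg for 5 days at least a week earlier. Cre+ mice (Ripk3fl/fl Aldh1l1Cre+) carry a tamoxifen-inducible recombinase driven by the promoter of the astrocyte gene Aldh1l1, and so lose Ripk3 in astrocytes. Cre- mice (Ripk3fl/fl Aldh1l1Cre-) are littermates that lack the recombinase. MPTP, a toxin of dopaminergic neurons, was given intraperitoneally at 20 mg/kg once a day for 5 days, control mice received saline, and tissue was taken 3 days after the last dose. The groups held 3 Cre- Saline, 3 Cre- MPTP, 3 Cre+ Saline and 4 Cre+ MPTP mice, each a library of total RNA from whole midbrain. Whole tissue holds RNA of many cell types, so more cells of a type and more RNA per cell cannot be told apart.

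Type I interferons are secreted cytokines that bind the receptor pair IFNAR1 and IFNAR2. The kinases JAK1 and TYK2 then phosphorylate STAT2, which acts with IRF9 in a complex that binds the interferon-stimulated response element (ISRE) in the promoters of antiviral genes. Most of these genes also respond to other inputs, among them interferon gamma, which acts at gamma-activated sites (GAS), and IRF3 downstream of nucleic acid sensors. In the brain, microglia, astrocytes, endothelial cells and neurons can all carry out this response.

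The promoters of the listed genes were searched for the ISRE. Windows of 300 bases, from 250 bases before to 50 bases after the transcription start, were found for 36 of the 47 genes in RefSeq sequence of GRCm38.p6. The ISRE core was searched as GAAA, any 2 bases and a second GAAA, which reads TTTC, 2 bases and TTTC on the other strand. It occurred in 18 of the 36 windows (50%) and in 3.99% of the 27025 genes with a window. The GAS letters TTCNNNGAA, which read the same on both strands, occurred in 7 of the 36 (19.4%) and in 9.55% of all genes with a window, and 4 members held both motifs. The genes without a window were Oas2, Mx1, Mx2, Usp18, Rtp4, Ifi27, Ifi27l2a, Dhx58, Parp9, Parp14 and Ly6e. Stretches around the match are shown for genes that differed widely in their response to MPTP. Capitals mark the ISRE match, or overlapping matches where several run together, with up to 15 flanking bases in lower case.
Isg15, chr4:156200860-156200911, minus strand: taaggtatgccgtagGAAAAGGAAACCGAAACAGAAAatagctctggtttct
Oas1a, chr5:120907526-120907560, minus strand: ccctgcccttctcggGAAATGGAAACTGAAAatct
Bst2, chr8:71537572-71537617, minus strand: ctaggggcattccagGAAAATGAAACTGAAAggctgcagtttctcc
Ifit1, chr19:34640770-34640828, plus strand: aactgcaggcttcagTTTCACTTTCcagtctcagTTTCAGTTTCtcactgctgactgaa
Ifit3, chr19:34583358-34583431, plus strand: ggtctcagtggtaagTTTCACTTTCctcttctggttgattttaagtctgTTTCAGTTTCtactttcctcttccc
Stat2, chr10:128270261-128270300, plus strand: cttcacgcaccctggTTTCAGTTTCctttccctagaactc
Slfn5, chr11:82951932-82951971, plus strand: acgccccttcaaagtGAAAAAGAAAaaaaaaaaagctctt
The Isg15 stretch holds 3 overlapping matches, 78 to 66 bases before the start, and those of Oas1a and Bst2 hold 2 overlapping matches each. The Ifit1 and Ifit3 stretches each hold 2 separate matches on the other strand. The windows of Ifit3 and its near copy Ifit3b share a run of 169 bases, so the Ifit3b stretch reads the same. Stat2 and Slfn5 have 1 match each. No match was found in the windows of Irf7, Irf9, Ifi44, Lgals3bp, Slfn2 and Oasl2, which says only that these letters are not in those 300 bases.

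Library totals ranged from 11489150 to 29397278 assigned counts. Values are given as CPM, counts scaled to library totals corrected by TMM, and always in the order of the replicate numbers. The library Cre- MPTP 1 stood apart: it had the lowest total and 21101 genes with a count, against 25432 to 27186 in the other 12. Counts of calls are given with and without it, as are the genes whose call it changed. Summed marker levels of other cells moved with MPTP. Neutrophil markers (7 genes) were at 0.119 to 1.13 CPM in Cre- Saline and 10.4 to 64.2 CPM in Cre- MPTP libraries, against 0.325 to 3.24 in Cre+ Saline and 0.572 to 3.92 in Cre+ MPTP, and 4 of the 5 that were tested rose in Cre- mice. Microglia markers (8 genes) summed to 245 to 276 CPM in Cre- Saline and 172 to 237 in Cre- MPTP, with 2 called lower. They summed to 240 to 261 in Cre+ Saline and 243 to 318 in Cre+ MPTP. The 8 did not move together in Cre- mice. Raw counts of P2ry12 were 507 to 654 in Saline and 23, 86 and 108 in MPTP, and of Siglech 207 to 298 and 5, 65 and 31. Those of Cx3cr1 were 771 to 812 and 108, 622 and 1269, and of Aif1 46 to 94 and 7, 45 and 179. Oligodendrocyte markers (5 genes) were at 10825 to 14400 CPM in Cre- Saline and 7231 to 9747 in Cre- MPTP, with 2 called lower, and at 12912 to 14615 in Cre+ Saline and 9053 to 12234 in Cre+ MPTP. Fibroblast markers (4 genes) were at 73.1 to 90.4 CPM in Cre- Saline and 112 to 147 in Cre- MPTP, with 1 called higher. They were at 68.5 to 92.9 in Cre+ Saline and 49.2 to 108 in Cre+ MPTP. The 4 did not move together. Leaving aside the shallow Cre- MPTP 1, raw counts of Dcn were 626 to 685 in Cre- Saline and 1789 and 2578 in Cre- MPTP. In the same order, Lum had 76 to 84 against 33 and 50 counts. Col1a1 had 370 to 707 against 377 and 336, and Col1a2 762 to 1046 against 620 and 697. Endothelial markers (6 genes) were at 274 to 300 CPM in Cre- Saline and 242 to 406 in Cre- MPTP, with 1 called lower. They were at 243 to 275 in Cre+ Saline and 266 to 334 in Cre+ MPTP. Macrophage and monocyte markers (6 genes) had 1 called higher and 1 called lower in Cre- mice. Astrocyte markers (6 genes) were at 2037 to 4109 CPM over all libraries, the lowest in Cre- MPTP 1, with 1 called higher in Cre- mice. Dopaminergic neuron markers (6 genes) were at 189 to 352. Cre+ MPTP 4 held muscle markers at 5486 CPM, against 7.59 to 123 in the other 12. The part of these differences in the levels below was not tested. The targeted gene Ripk3 had 4 to 40 counts per library, 4 to 19 in Cre+ and 4 to 40 in Cre- mice, too few to check the genotype of single mice.

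The interferon-stimulated genes as a group were higher after MPTP in both genotypes. Between MPTP and Saline, the log2 fold change was above 0 for 44 of 47 genes in Cre- mice, where 52.4% of all 19360 genes tested were above 0. In Cre+ mice it was above 0 for 47 of 47, against 50.9% of all genes, and in both genotypes for 44, against 28.2%. These counts include Oasl1, Oas3 and Phf11b, which passed the low-count filter only through MPTP libraries. The median over the 47 was 1.33 in Cre- and 0.84 in Cre+ mice, while the median of all genes was 0.03 and 0.00. In single mice, the median of the 47 genes lay 0.49, 1.38 and 1.47 log2 units above the Cre- Saline mean in the Cre- MPTP libraries. It lay 0.81, 0.54, 1.23 and 0.89 above the Cre+ Saline mean in the Cre+ MPTP libraries. None of the 6 Saline libraries exceeded 0.16, but each is part of the mean it was set against, which draws its value toward 0. Summed over the 47 genes, the level was 408 to 453 CPM in Cre- Saline, 387 to 416 in Cre+ Saline, 697 to 967 in Cre- MPTP and 536 to 774 in Cre+ MPTP libraries.

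**Figure D1:**
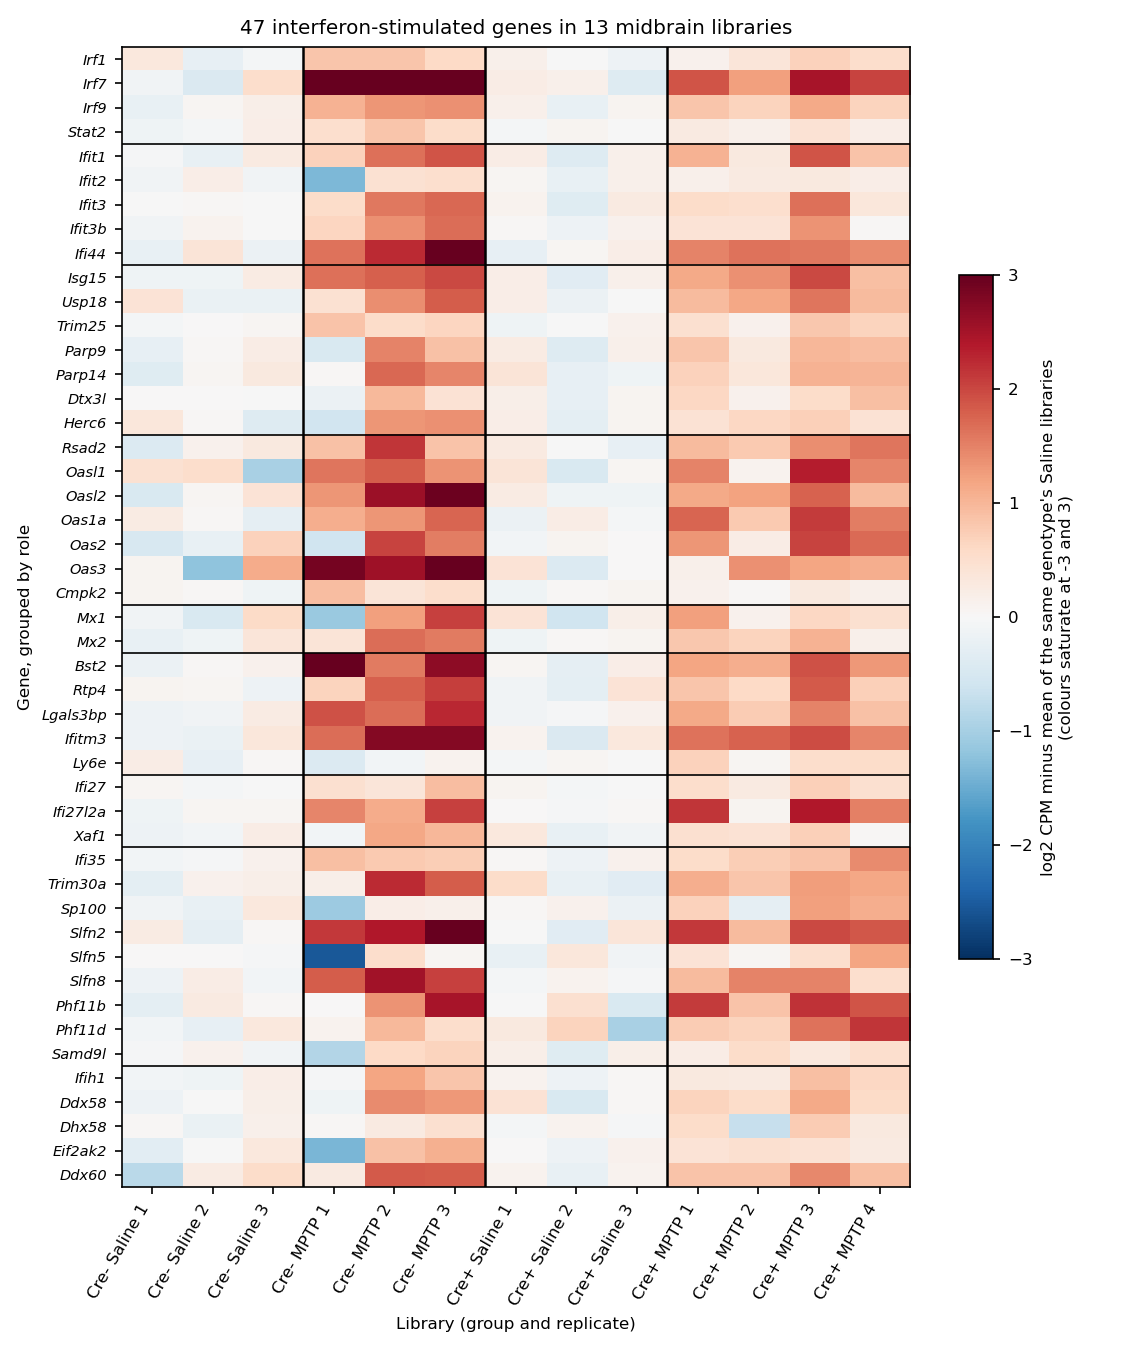
Levels of the 47 genes (rows, grouped by role) in the 13 libraries (columns), as log2 CPM minus the mean of the Saline libraries of the same genotype; red is higher. Irf7, Ifi44, Bst2, Ifitm3 and Slfn2 are red in all 7 MPTP libraries, Ly6e and Ifit2 are pale in most, and the column of Cre- MPTP 1 mixes the strongest red (Bst2) with blue (Slfn5).

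**Figure D2:**
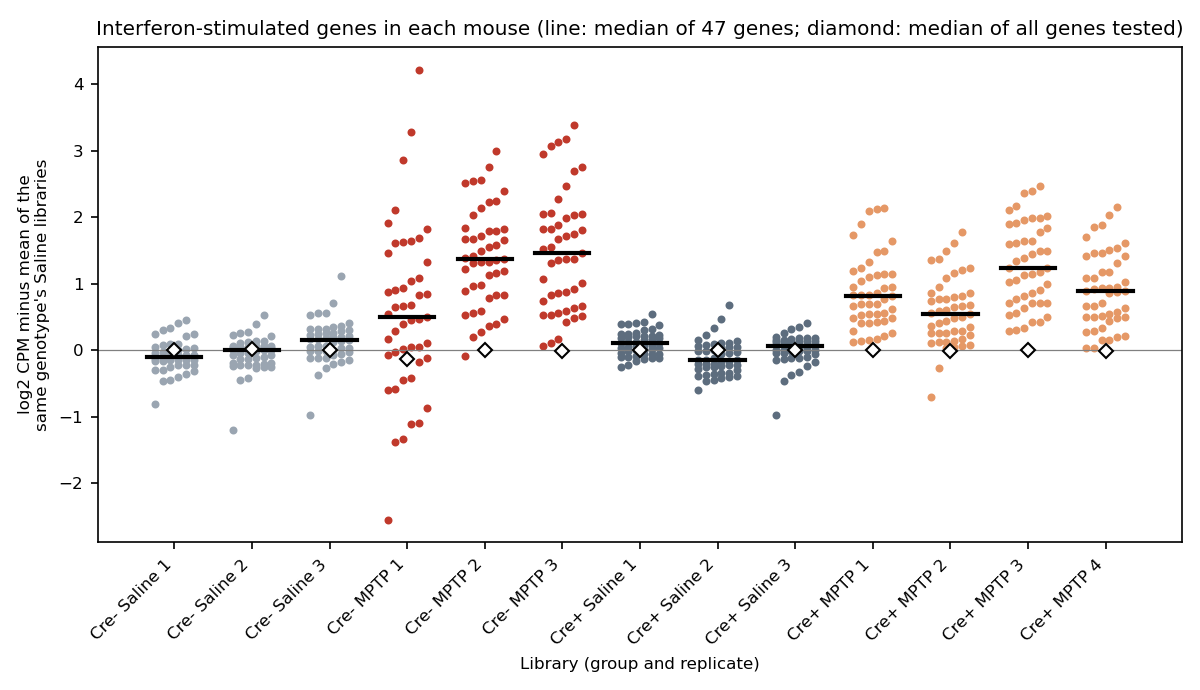
Each point is 1 of the 47 genes in 1 library (horizontal axis), as log2 CPM minus the Saline mean of the same genotype; the line is the median of the 47 and the diamond the median of all genes tested. The median lies between 0.49 and 1.47 in the 7 MPTP libraries, while the diamonds lie between -0.13 and 0.01 in all 13.

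A second count used no model. A gene was taken as not overlapping in a genotype when every MPTP library lay above every Saline library of that genotype. This held in Cre- mice for 28 of the 47 genes, where 7.11% of all genes tested did so, and in Cre+ mice for 35, where 5.06% did. It held in both genotypes for 23 genes, against 1.52% of all genes. These were Irf7, Irf9, Stat2, Ifit1, Ifit3, Ifi44, Isg15, Usp18, Trim25, Rsad2, Oasl2, Oas1a, Mx2, Bst2, Rtp4, Lgals3bp, Ifitm3, Ifi27, Ifi27l2a, Ifi35, Trim30a, Slfn2 and Slfn8. For 18 of the 23, all 7 MPTP libraries lay above all 6 Saline libraries (0.961% of all genes), and the exceptions were Stat2, Mx2, Ifi27l2a, Ifi35 and Trim30a. All 4 Cre+ MPTP libraries lay above all 6 Saline libraries for 26 genes (2.29% of all genes). Oasl1 and Oas3 are among the 28, and Phf11b is among the 35 and the 26. These genes passed the low-count filter only through MPTP libraries, so they support nothing in these counts. None of them is among the 23. Every MPTP library lay below every Saline library for 0 of the 47 in Cre- mice, against 8.02% of all genes, and for 0 in Cre+ mice, against 4.61%.

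The tests called fewer genes. With edgeR's quasi-likelihood test and an adjusted p under 0.05 over all genes, 15 of the 47 rose with MPTP in Cre- mice, where 2.23% of all genes tested rose, and 0 fell, where 0.956% did. Without adjustment, 37 were higher at p under 0.05 (9.25% of all genes). DESeq2 called 31 of the 47 higher in Cre- mice (3.91% of all genes), limma voom with sample quality weights 40 (7.09%) and edgeR on the 2 groups alone 5 of the 46 then tested (0.573%). In Cre+ mice 0 of 47 passed, as did 0% of all genes. At an unadjusted p under 0.05, 32 of the 47 were higher in Cre+ mice, against 2.7% of all genes, and the smallest adjusted p among the members was 0.104, of Irf7. DESeq2 called 12 of the 47 higher in Cre+ mice, where it called 0.387% of all genes, limma voom called 24, against 0.945%, and edgeR on the 2 groups alone 2, against 0.0757%. The contrast that averages the MPTP responses of both genotypes uses the libraries of all 4 groups but does not by itself show a rise in each. By it 28 of the 47 rose, where 2.02% of all genes did, and 0 fell, where 0.811% did, with a median log2 fold change of 1.03. Without adjustment, 40 were higher at p under 0.05 (6.66%). DESeq2 called 36 (3.45%), voom 45 (7.29%), and edgeR without Cre- MPTP 1 called 42 (5%). This contrast is called the averaged response below. Oasl1, Oas3 and Phf11b passed the low-count filter only through MPTP libraries. Of the 44 genes that passed it on the Saline libraries alone, 14 were called in Cre- mice and 26 in the averaged response. The counts at an unadjusted p, of log2 fold changes above 0, of genes not overlapping, and for the other tools and fits were not restricted to these 44. The calls were not equally firm when each of the 13 libraries was left out in turn. Of the 15 in Cre- mice, 10 were called in every such fit, namely Irf7, Irf9, Ifi44, Isg15, Oasl2, Bst2, Lgals3bp, Ifitm3, Slfn2 and Slfn8. Oas3 was lost in 4 of the 13 fits, Oas1a and Stat2 in 10, and Cmpk2 and Rtp4 in 11, with adjusted p from 0.0501 to 0.185. Of the 28 in the averaged response, 14 were called in every fit: the same 10 genes with Ifi27l2a, Ifi35, Oas1a and Usp18. The other 14 were lost in 1 (Rsad2) to 12 (Ddx60) of the 13 fits, with adjusted p from 0.0502 to 0.14, and none of them without Cre- MPTP 1.

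Whether a gene rose in each genotype was tested with the larger of its 2 p-values. By this test 0 of the 47 were called, as were 0% of all genes; 28 had an unadjusted larger p under 0.05, against 1.36% of all genes. DESeq2 called 8 (0.305% of all genes) and limma voom 11 (0.424%). Without Cre- MPTP 1, edgeR called 6 of the 47 in both genotypes, where 0.129% of all genes were called. The 6 were Ifitm3, Irf7, Irf9, Lgals3bp, Slfn2 and Oasl2, with adjusted p from 0.00198 to 0.0452. The same fit called 40 of the 47 in Cre- mice (5.14% of all genes) and 7 in Cre+ mice (0.161%), the seventh being Ifi44. In Cre- mice it called all but Oasl1, Dhx58, Dtx3l, Sp100, Slfn5, Phf11d and Ly6e. Cre- MPTP 1 is not part of the contrast within Cre+ mice, and enters it only through the shared filter, scaling and estimate of spread. For Irf7 the log2 fold change in Cre+ mice was 1.98 with and 1.99 without.

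**Figure D3:**
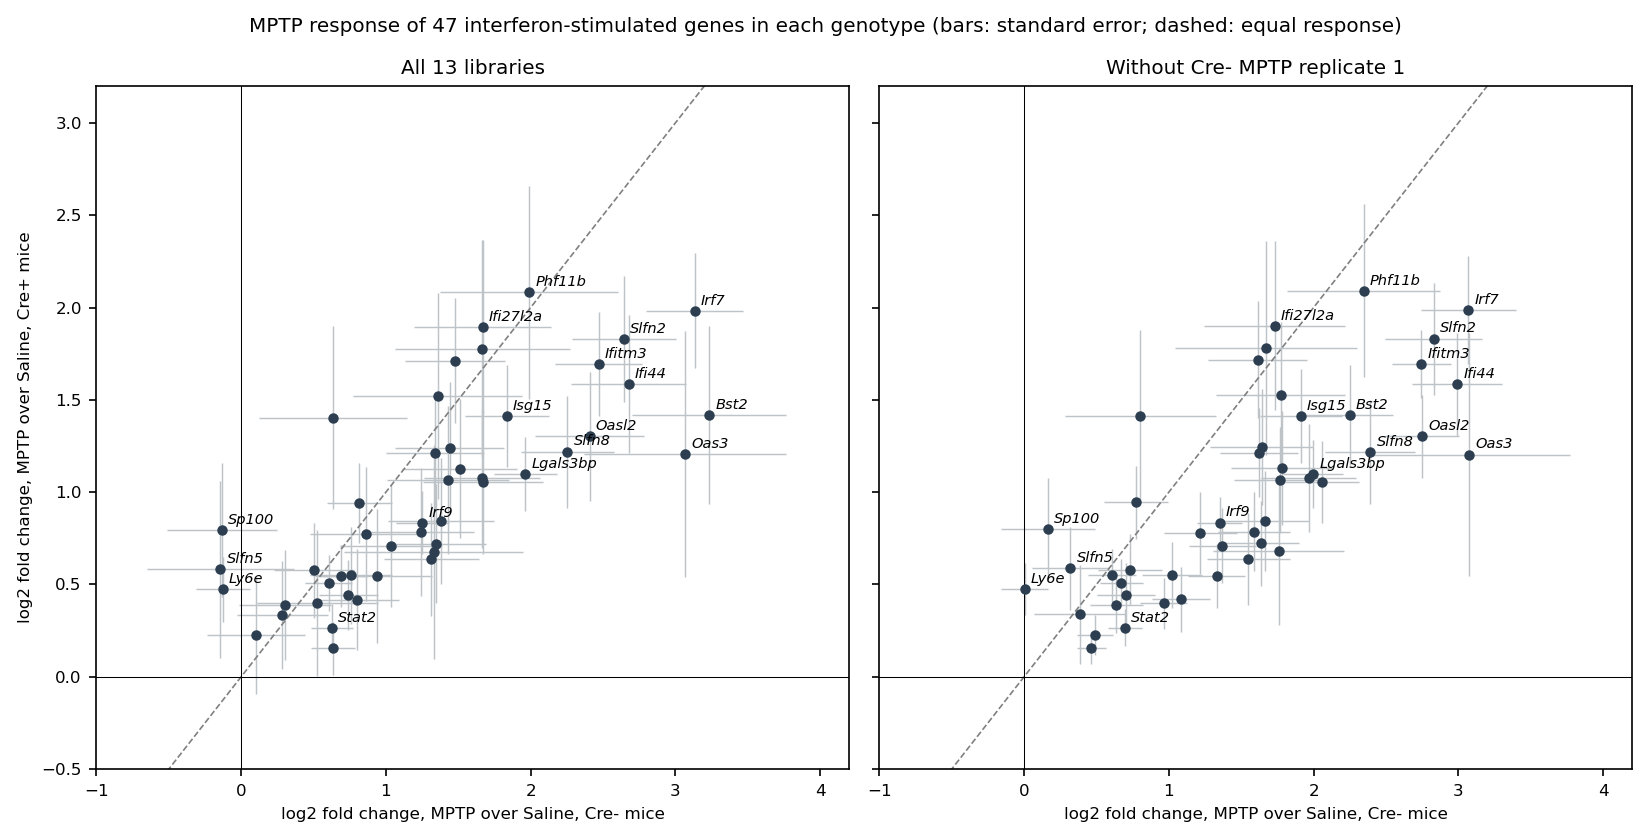
Log2 fold change between MPTP and Saline in Cre+ mice (vertical) against that in Cre- mice (horizontal) for the 47 genes, with standard errors, from all 13 libraries (left) and without Cre- MPTP 1 (right); the dashed line marks equal responses. All 47 lie above 0 on the vertical axis, the 3 left of 0 in the left panel (Sp100, Slfn5, Ly6e) lie at or above 0 in the right, and most points lie below the dashed line.

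The 4 transcription factors of the list all rose in the averaged response, although the calls of Irf1 and Stat2 were each lost in 10 of the 13 fits that left out 1 library (adjusted p up to 0.14 and 0.117). Irf7, which drives interferon alpha genes and amplifies the response, had the largest averaged response of the 47. Its level was 2.30, 1.84 and 3.65 CPM in Cre- Saline, 24.9, 20.6 and 23.1 in Cre- MPTP, 3.27, 3.13 and 2.13 in Cre+ Saline and 10.6, 6.71, 15.9 and 11.7 in Cre+ MPTP. All 7 MPTP libraries lay above all 6 Saline libraries, and every Cre- MPTP library lay above every Cre+ MPTP library. With MPTP the log2 fold change of Irf7 was 3.13 (SE 0.34, adjusted p = 0.00085) in Cre- mice and 1.98 (SE 0.31, adjusted p = 0.104) in Cre+ mice. Irf7 shares 45 exon bases with Phrf1 on the opposite strand, and the strand setting of the counting is not given in the sources used here.

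Irf9, the DNA-binding partner of STAT2, was at 12.5, 15.2 and 16.4 CPM in Cre- Saline, 30.2, 36.8 and 38.2 in Cre- MPTP, 14.2, 10.98 and 13.4 in Cre+ Saline and 22.7, 20.3, 28.3 and 20.4 in Cre+ MPTP. The MPTP libraries again lay above all Saline libraries, with Cre- MPTP above Cre+ MPTP. The log2 fold change was 1.25 (SE 0.18, adjusted p = 0.00253) in Cre- and 0.83 (SE 0.17, adjusted p = 0.247) in Cre+ mice. Stat2, its partner, was at 28.1, 29.4 and 35.5 CPM in Cre- Saline, 43.5, 54.6 and 45.6 in Cre- MPTP, 29.1, 32.1 and 30.04 in Cre+ Saline and 36.5, 34.02, 40.8 and 34.7 in Cre+ MPTP. The groups did not overlap within either genotype, but Cre+ MPTP 2 and 4 lay below Cre- Saline 3. Stat2 rose in Cre- mice (log2 fold change 0.63, SE 0.14, adjusted p = 0.0303), and its log2 fold change in Cre+ mice was 0.26 (adjusted p = 1). Irf1, a factor induced by both interferon types, was at 9.37, 6.33 and 7.23 CPM in Cre- Saline, 13.4, 13.5 and 11.4 in Cre- MPTP, 7.02, 6.18 and 5.67 in Cre+ Saline and 6.84, 8.11, 10.2 and 9.01 in Cre+ MPTP. Irf1 did not overlap in Cre- mice, overlapped in Cre+ mice through Cre+ MPTP 1, and rose in the averaged response (log2 fold change 0.59, SE 0.14, adjusted p = 0.0406).

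The IFIT proteins bind foreign RNA, and 4 of the 5 genes in their group (with Ifi44) rose in the averaged response. Ifit1, which binds viral RNA ends, was at 3.89, 3.44 and 4.82 CPM in Cre- Saline, 6.50, 12.8 and 14.99 in Cre- MPTP, 4.89, 3.13 and 4.64 in Cre+ Saline and 8.61, 5.09, 15.6 and 7.59 in Cre+ MPTP. Ifit3, which stabilizes IFIT1, was at 11.3, 11.6 and 11.2 CPM in Cre- Saline, 16.7, 34.3 and 37.6 in Cre- MPTP, 13.5, 9.60 and 14.9 in Cre+ Saline and 18.4, 17.7, 39.3 and 15.7 in Cre+ MPTP. In both, MPTP and Saline libraries did not overlap within a genotype, and Cre+ MPTP 3 lay above every Cre- MPTP library. The averaged log2 fold change was 1.32 (SE 0.27, adjusted p = 0.021) for Ifit1 and 1.11 (SE 0.25, adjusted p = 0.0329) for Ifit3. Of the 13 fits that left out 1 library, 5 lost the call of Ifit1 (adjusted p up to 0.0811) and 9 that of Ifit3 (up to 0.117). Ifit3b was at 5.87, 6.83 and 6.28 CPM in Cre- Saline, 9.97, 16.6 and 20.4 in Cre- MPTP, 7.06, 6.18 and 7.58 in Cre+ Saline and 9.17, 9.23, 17.7 and 7.10 in Cre+ MPTP. Cre+ MPTP 4 lay within the Saline range for Ifit3b, and its averaged log2 fold change was 0.98 (adjusted p = 0.036). The call of Ifit3b was lost in 10 of the 13 fits (adjusted p up to 0.125). Of the distinct 100-base stretches in Ifit3 transcripts, 31.7% also occur in Ifit3b, so unique counting can lose or shift reads between them. Ifi44 was at 0.992, 1.56 and 1.02 CPM in Cre- Saline, 3.79, 5.86 and 13.04 in Cre- MPTP, 0.907, 1.14 and 1.26 in Cre+ Saline and 3.22, 3.52, 3.46 and 3.05 in Cre+ MPTP, with all MPTP libraries above all Saline libraries. It rose in Cre- mice (log2 fold change 2.68, SE 0.40, adjusted p = 0.00267), and its log2 fold change in Cre+ mice was 1.58 (adjusted p = 0.391). Ifit2 had the smallest averaged response of the 47, 0.16 (adjusted p = 0.841), at 16.5, 20.4 and 16.3 CPM in Cre- Saline, 6.94, 24.4 and 25.2 in Cre- MPTP, 18.6, 15.3 and 19.7 in Cre+ Saline and 19.8, 21.4, 21.9 and 20.5 in Cre+ MPTP. Its log2 fold change in Cre- mice was 0.10 with all libraries and 0.49 (SE 0.13, adjusted p = 0.0272) without Cre- MPTP 1, whose level was the lowest of the 13. Without that library Ifit2 was also called in the averaged response (log2 fold change 0.36, SE 0.08, adjusted p = 0.0159).

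Of the 7 genes of the ISG15 and ubiquitin group, 3 rose in the averaged response. Isg15, the ubiquitin-like protein that is attached to other proteins, was at 2.46, 2.42 and 3.21 CPM in Cre- Saline, 8.56, 9.47 and 10.8 in Cre- MPTP, 2.68, 1.79 and 2.55 in Cre+ Saline and 5.17, 6.10, 9.36 and 4.35 in Cre+ MPTP. Usp18, which removes ISG15 and damps the receptor, was at 2.86, 1.84 and 1.83 CPM in Cre- Saline, 2.93, 5.70 and 7.66 in Cre- MPTP, 2.09, 1.59 and 1.79 in Cre+ Saline and 3.58, 4.14, 5.68 and 3.55 in Cre+ MPTP. Trim25, a ubiquitin ligase of RNA sensing, was at 10.1, 10.6 and 11.03 CPM in Cre- Saline, 19.1, 15.6 and 16.5 in Cre- MPTP, 9.62, 10.4 and 11.4 in Cre+ Saline and 14.7, 11.5, 18.4 and 16.6 in Cre+ MPTP. In all 3 genes the 7 MPTP libraries lay above the 6 Saline libraries. The averaged log2 fold change was 1.62 (SE 0.20, adjusted p = 0.00107) for Isg15, 1.28 (SE 0.23, adjusted p = 0.00991) for Usp18 and 0.62 (SE 0.12, adjusted p = 0.017) for Trim25. The other four, Parp9, Parp14, Dtx3l and Herc6, had averaged log2 fold changes of 0.54 to 1.01 and adjusted p from 0.0572 to 0.246. These 4 were called too without Cre- MPTP 1, with averaged log2 fold changes of 0.66 to 1.19 and adjusted p from 0.000515 to 0.0133. Parp9 and Dtx3l overlap by 458 exon bases on opposite strands.

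Among the enzymes of RNA and nucleotide chemistry, 4 of 7 rose in the averaged response, Oas3 among them. Oasl2, of the oligoadenylate synthetase family, was at 4.96, 7.11 and 9.06 CPM in Cre- Saline, 17.3, 40.96 and 53.4 in Cre- MPTP, 8.55, 6.63 and 6.62 in Cre+ Saline and 16, 16.8, 24.9 and 14 in Cre+ MPTP. All MPTP libraries lay above all Saline libraries, and Cre- MPTP 1 lay within the Cre+ MPTP range, far below the other two of its group. Oasl2 rose in Cre- mice (log2 fold change 2.41, SE 0.38, adjusted p = 0.00361), and its log2 fold change in Cre+ mice was 1.30 (adjusted p = 0.591). Oas1a, which makes the activator of RNase L, was at 1.23, 1.05 and 0.840 CPM in Cre- Saline, 2.28, 2.69 and 3.66 in Cre- MPTP, 0.631, 0.854 and 0.685 in Cre+ Saline and 2.59, 1.29, 3.37 and 2.25 in Cre+ MPTP. The log2 fold changes in Cre+ and Cre- mice were 1.71 (SE 0.34) and 1.48 (SE 0.34), the second past the threshold (adjusted p = 0.0359) and the first not (adjusted p = 0.247). Of its 100-base stretches, 40.9% also occur in Oas1g. Oas3, another synthetase, was at 0.119, 0 and 0.329 CPM in Cre- Saline, 1.30, 1.03 and 1.58 in Cre- MPTP, 0.276, 0.122 and 0.190 in Cre+ Saline and 0.222, 0.615, 0.532 and 0.496 in Cre+ MPTP. These are few counts, and Cre+ MPTP 1 lay within the Saline range. In Cre- mice the log2 fold change of Oas3 was 3.07 (SE 0.70, adjusted p = 0.0316), but Oas3 passed the low-count filter only through the MPTP libraries, where it is high, so its call supports nothing here.

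Rsad2, whose product viperin makes a chain-terminating nucleotide, was at 1.55, 2.27 and 2.56 CPM in Cre- Saline, 3.90, 9.47 and 3.83 in Cre- MPTP, 2.68, 2.20 and 1.87 in Cre+ Saline and 4.40, 3.92, 5.94 and 6.98 in Cre+ MPTP. The averaged log2 fold change was 1.34 (SE 0.26, adjusted p = 0.0138), and all 7 MPTP libraries lay above the Saline libraries. Its neighbour Cmpk2, a mitochondrial nucleotide kinase, was at 44.5, 43.3 and 38.7 CPM in Cre- Saline, 80.4, 55.3 and 60.8 in Cre- MPTP, 38.5, 43.2 and 44.3 in Cre+ Saline and 45.9, 42.9, 51.2 and 46.8 in Cre+ MPTP. Cmpk2 rose in Cre- mice (log2 fold change 0.63, SE 0.15, adjusted p = 0.041), where Cre- MPTP 1 was the highest library, while Cre+ MPTP and Saline libraries overlapped. Oasl1 and Oas2 had averaged log2 fold changes of 1.72 (adjusted p = 0.0501) and 1.44 (adjusted p = 0.0976). Of the dynamin-like Mx GTPases, Mx2 was at 1.39, 1.48 and 2.12 CPM in Cre- Saline, 2.17, 5.39 and 4.95 in Cre- MPTP, 1.62, 1.83 and 1.90 in Cre+ Saline and 3.18, 2.85, 3.77 and 1.98 in Cre+ MPTP. Mx2 rose in the averaged response (log2 fold change 1.03, SE 0.24, adjusted p = 0.0346), with no overlap within a genotype. That call was lost in 11 of the 13 fits that left out 1 library (adjusted p up to 0.124). The averaged log2 fold change of Mx1 was 1.00 (adjusted p = 0.379). Without Cre- MPTP 1, Oasl1, Oas2, Cmpk2 and Mx1 were called in the averaged response, with adjusted p of 0.0229, 0.0033, 0.00964 and 0.0231. Oasl1, like Oas3, passed the low-count filter only through the MPTP libraries, so its call supports nothing here.

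Of the 5 membrane and secreted proteins, 4 rose in Cre- mice. Ifitm3, which blocks the entry of viruses from endosomes, was at 9.56, 9.18 and 13.4 CPM in Cre- Saline, 34.1, 71.7 and 71.9 in Cre- MPTP, 8.95, 6.18 and 10.5 in Cre+ Saline and 26.1, 28.7, 32.7 and 23.05 in Cre+ MPTP. All 7 MPTP libraries lay above the Saline libraries, and Cre- MPTP 1 lay just above the highest Cre+ MPTP library. Ifitm3 had a log2 fold change of 2.47 (SE 0.30, adjusted p = 0.00115) in Cre- and 1.69 (SE 0.28, adjusted p = 0.138) in Cre+ mice. Without Cre- MPTP 1 the latter was 1.69 (SE 0.18, adjusted p = 0.00198), the smallest adjusted p of the 47 genes in Cre+ mice. Lgals3bp, a secreted galectin-binding glycoprotein, was at 17.98, 18.6 and 23.6 CPM in Cre- Saline, 74.8, 63.5 and 96.1 in Cre- MPTP, 18.4, 19.4 and 21.7 in Cre+ Saline and 43.98, 33.7, 55.6 and 36.4 in Cre+ MPTP. The 3 Cre- MPTP libraries lay above the 4 Cre+ MPTP libraries, and these above all Saline libraries. The log2 fold change was 1.96 (SE 0.22, adjusted p = 0.00085) in Cre- and 1.10 (SE 0.20, adjusted p = 0.247) in Cre+ mice.

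Bst2, or tetherin, which holds budding virus at the cell surface, was at 4.25, 4.88 and 5.26 CPM in Cre- Saline, 90.7, 14.2 and 31.3 in Cre- MPTP, 4.18, 3.34 and 4.61 in Cre+ Saline and 9.28, 8.56, 15.3 and 10.04 in Cre+ MPTP. Cre- MPTP 1 was far above every other library, but the other 6 MPTP libraries also lay above all Saline libraries. Bst2 had a log2 fold change in Cre- mice of 3.23 (SE 0.53, adjusted p = 0.00477) with and 2.25 (SE 0.30, adjusted p = 0.000438) without that library. Rtp4, a receptor chaperone, was at 3.02, 2.93 and 2.56 CPM in Cre- Saline, 4.55, 9.98 and 12.1 in Cre- MPTP, 2.64, 2.28 and 3.77 in Cre+ Saline and 5.10, 4.31, 10.3 and 4.69 in Cre+ MPTP. All 7 MPTP libraries lay above the Saline libraries, and Rtp4 rose in Cre- mice (log2 fold change 1.66, SE 0.40, adjusted p = 0.0415), a call lost in 11 of the 13 fits that left out 1 library (adjusted p up to 0.175). Rtp4 shares 296 exon bases with Gm45338 on the same strand. Ly6e, a lipid-anchored surface protein, was at 112, 81.2 and 100 CPM in Cre- Saline, 72.5, 91.1 and 105 in Cre- MPTP, 76.01, 81.4 and 78.2 in Cre+ Saline and 127, 81.5, 113 and 115 in Cre+ MPTP. Its groups overlapped in Cre- mice, and its averaged log2 fold change was 0.17 (adjusted p = 0.68), one of the 3 smallest.

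**Figure D4:**
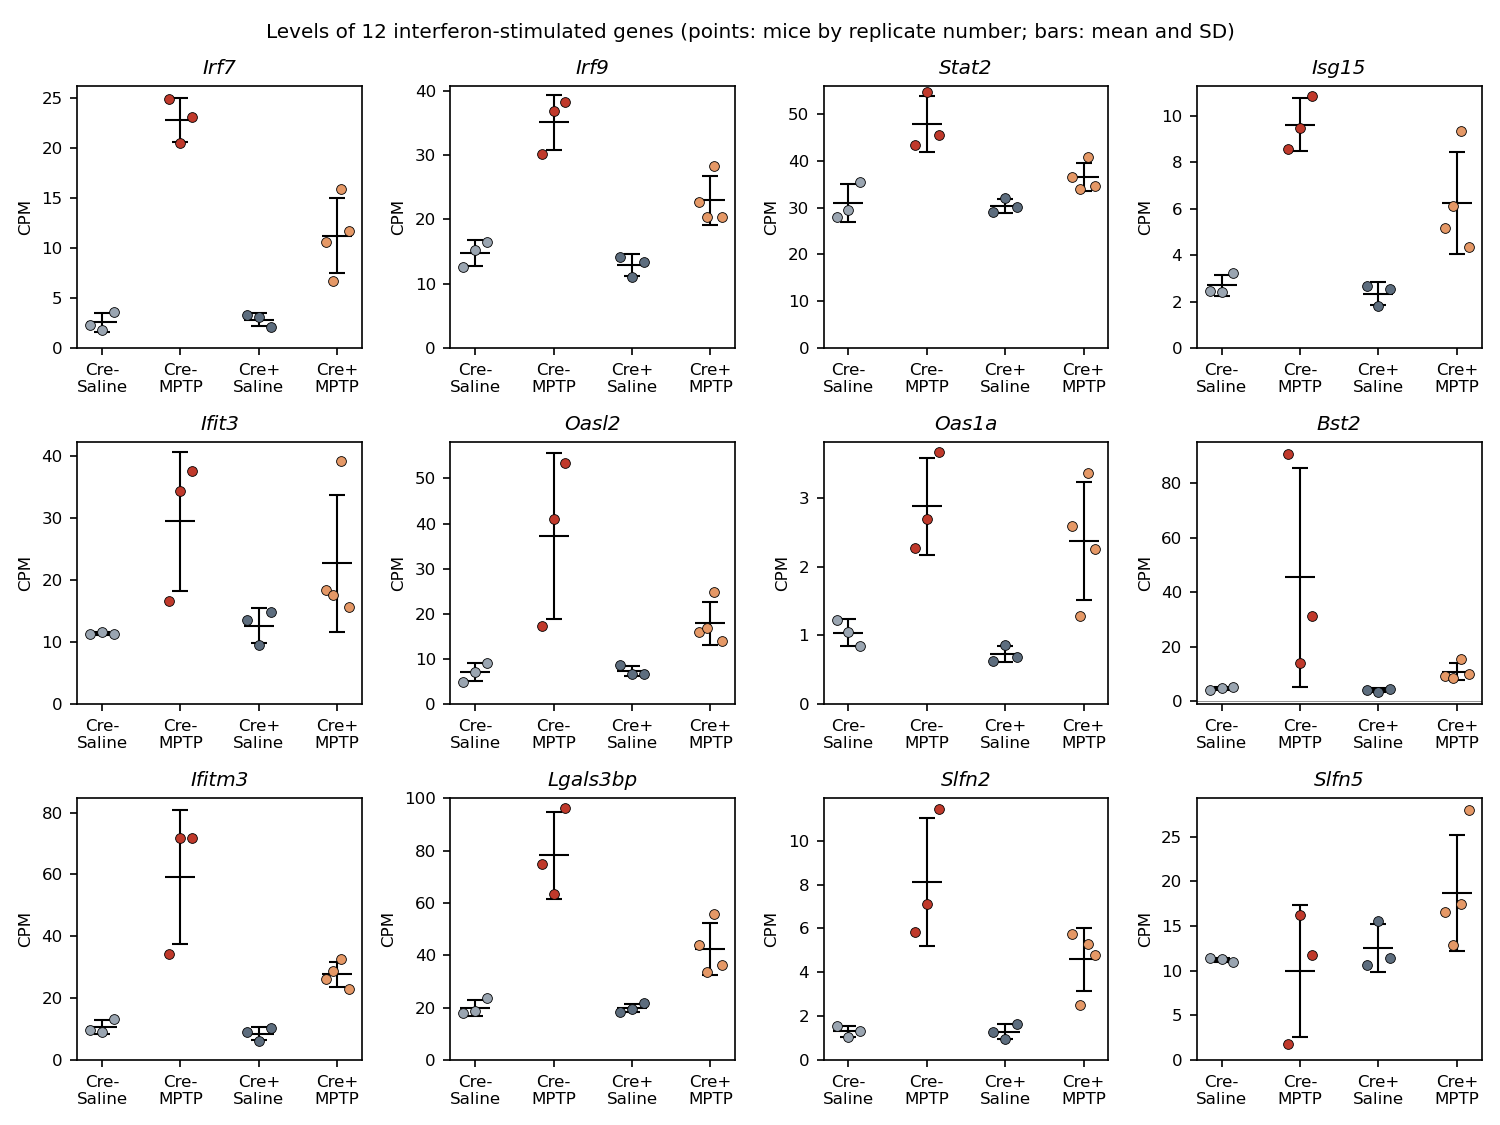
CPM of 12 of the genes in each mouse (points, in the order of replicate numbers) by group, with mean and SD; each panel has its own vertical axis. In 10 panels all MPTP points lie above all Saline points, Stat2 separates only within each genotype, and the Slfn5 points overlap between groups.

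Of the Ifi27 family and Xaf1, 2 of 3 rose in the averaged response. Ifi27, a small hydrophobic protein, was at 34.96, 32.6 and 33.6 CPM in Cre- Saline, 46.8, 43.3 and 63.7 in Cre- MPTP, 32.5, 29.5 and 30.5 in Cre+ Saline and 44.5, 37.04, 50.6 and 43.4 in Cre+ MPTP. Its relative Ifi27l2a was at 0.952, 1.09 and 1.10 CPM in Cre- Saline, 3.03, 2.38 and 4.56 in Cre- MPTP, 0.631, 0.610 and 0.647 in Cre+ Saline and 3.07, 0.671, 3.68 and 1.95 in Cre+ MPTP. Ifi27 had all MPTP libraries above all Saline libraries with a small change (log2 fold change 0.56, SE 0.11, adjusted p = 0.017), and Ifi27l2a had low levels with a larger one (log2 fold change 1.78, SE 0.33, adjusted p = 0.0117). For Ifi27l2a, Cre+ MPTP 2 lay just above the Cre+ Saline libraries and below every Cre- Saline library. The averaged log2 fold change of Xaf1 was 0.61 (adjusted p = 0.192) with all libraries and 0.75 (SE 0.13, adjusted p = 0.00285) without Cre- MPTP 1.

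Of the 9 nuclear body, TRIM and schlafen genes, 5 rose in the averaged response, Phf11b among them. Slfn2, a regulator of immune cell quiescence, was at 1.55, 1.05 and 1.31 CPM in Cre- Saline, 5.85, 7.13 and 11.4 in Cre- MPTP, 1.26, 0.976 and 1.64 in Cre+ Saline and 5.77, 2.52, 5.28 and 4.81 in Cre+ MPTP. Slfn8, another schlafen, was at 0.794, 1.05 and 0.840 CPM in Cre- Saline, 3.36, 5.51 and 3.93 in Cre- MPTP, 0.828, 0.936 and 0.838 in Cre+ Saline and 1.74, 2.57, 2.57 and 1.26 in Cre+ MPTP. In both, all MPTP libraries lay above all Saline libraries. The log2 fold change of Slfn2 was 2.64 (SE 0.36, adjusted p = 0.00202) in Cre- and 1.83 (SE 0.34, adjusted p = 0.247) in Cre+ mice, and that of Slfn8 2.25 (SE 0.32, adjusted p = 0.00245) and 1.22 (SE 0.30, adjusted p = 0.461). Slfn5 stood apart from both, at 11.4, 11.2 and 10.99 CPM in Cre- Saline, 1.84, 16.2 and 11.7 in Cre- MPTP, 10.6, 15.5 and 11.4 in Cre+ Saline and 16.6, 12.9, 17.4 and 28.01 in Cre+ MPTP. Its log2 fold change was -0.14 in Cre- mice with all libraries and 0.32 without Cre- MPTP 1, the lowest library, and its averaged value was 0.22 (adjusted p = 0.861). Ifi35 was at 4.21, 4.30 and 4.82 CPM in Cre- Saline, 8.35, 7.72 and 7.43 in Cre- MPTP, 3.04, 2.68 and 3.24 in Cre+ Saline and 4.40, 5.04, 5.46 and 8.05 in Cre+ MPTP, and Trim30a was at 2.42, 3.28 and 3.36 CPM in Cre- Saline, 3.36, 14.3 and 10.8 in Cre- MPTP, 5.16, 3.01 and 2.78 in Cre+ Saline and 7.61, 6.27, 8.43 and 8.01 in Cre+ MPTP. Both rose in the averaged response, by 0.88 (SE 0.16, adjusted p = 0.00811) and 1.36 (SE 0.29, adjusted p = 0.0218) log2 units, with no overlap within a genotype. Cre+ MPTP 1 lay within the Cre- Saline range for Ifi35, and for Trim30a Cre- MPTP 1 was level with Cre- Saline 3. Phf11b was at 0.159, 0.273 and 0.219 CPM in Cre- Saline, 0.217, 0.673 and 1.55 in Cre- MPTP, 0.237, 0.366 and 0.152 in Cre+ Saline and 1.29, 0.503, 1.38 and 1.11 in Cre+ MPTP. Its averaged log2 fold change was 2.04 (SE 0.42, adjusted p = 0.0202), with Cre- MPTP 1 within the Saline range. Phf11b, too, passed the low-count filter only through the MPTP libraries, so its call supports nothing here. Sp100, Phf11d and Samd9l did not pass the threshold, with averaged log2 fold changes of 0.33, 1.02 and 0.35, and of these Samd9l was called without Cre- MPTP 1 (0.51, adjusted p = 0.0173).

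Of the 5 sensors of viral RNA and their kinase, 1 rose in the averaged response over all libraries and 4 without Cre- MPTP 1. Ddx60, a helicase cofactor of RNA sensing, was at 0.873, 1.91 and 2.37 CPM in Cre- Saline, 1.95, 5.90 and 5.84 in Cre- MPTP, 1.81, 1.42 and 1.79 in Cre+ Saline and 3.10, 3.08, 4.70 and 3.17 in Cre+ MPTP. Ddx60 rose in the averaged response (log2 fold change 1.25, SE 0.29, adjusted p = 0.0385), with no overlap in Cre+ mice and Cre- MPTP 1 within the Saline range. That call was lost in 12 of the 13 fits that left out 1 library, with adjusted p from 0.0502 to 0.129, and was kept without Cre- MPTP 1 (adjusted p = 0.00102). Ifih1, Ddx58 and Dhx58, which encode MDA5, RIG-I and LGP2, and the RNA-activated kinase Eif2ak2 had averaged log2 fold changes of 0.65 (adjusted p = 0.126), 0.87 (adjusted p = 0.0952), 0.31 (adjusted p = 0.658) and 0.46 (adjusted p = 0.629). Of these, Ifih1, Ddx58 and Eif2ak2 did not overlap in Cre+ mice, and in Cre- mice Cre- MPTP 1 fell within or below the Saline range for these 3 genes. Without that library they were called in the averaged response, Ifih1 at 0.79 (SE 0.14, adjusted p = 0.00252), Ddx58 at 1.04 (SE 0.16, adjusted p = 0.00094) and Eif2ak2 at 0.68 (SE 0.11, adjusted p = 0.00118), while Dhx58 was at 0.36 (adjusted p = 0.313).

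The members differed in level before any response. Per kilobase of exon, the mean over the Saline libraries was highest for Ly6e (23.3 CPM per kb), Ifi27 (22), Ifitm3 (14.2) and Cmpk2 (13.2). It was lowest for Oas3 (0.0244 CPM per kb). Over the MPTP libraries Ifitm3 was the highest, at 60.7 CPM per kb, followed by Ifi27 at 32.1, Bst2 at 28.4 and Ly6e at 26.6. The Bst2 value includes the high level of Cre- MPTP 1. Genes with an ISRE match in the window had a median averaged log2 fold change of 1.33 (18 genes, range 0.22 to 2.32), and those whose window lacked one had 0.81 (18 genes, 0.16 to 2.56). This is a description of 36 genes, and Slfn5 with a match and Irf7 without one show how far the ranges overlap.

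The size of the response was compared between genotypes in 2 ways. Under MPTP, the Cre+ level was below the Cre- level for 37 of the 47 genes, with a median log2 difference of -0.38 over the 47 against 0.03 over all genes. It was above for 10, where 52.4% of all genes were. Lgals3bp (log2 difference -0.88, SE 0.19, adjusted p = 0.0433) and Bst2 (log2 difference -2.06, SE 0.46, adjusted p = 0.0454) were lower in Cre+ MPTP mice, 2 of 47 where 1.03% of all genes were lower, and 0 were higher, where 0.517% were. At an unadjusted p under 0.05, 14 were lower (13.8% of all genes). In either direction, DESeq2 called 10 (4.31%), voom 21 (6.32%) and edgeR on the 2 groups alone 0, where it called 0% of all genes. All 4 Cre+ MPTP libraries lay below all 3 Cre- MPTP libraries for 11 genes, against 5.07% of all genes. These were Irf7, Irf9, Stat2, Irf1, Ifi44, Oas3, Cmpk2, Lgals3bp, Ifitm3, Slfn2 and Slfn8, of which Oas3 passed the low-count filter only through MPTP libraries. Cre+ MPTP lay wholly above for 0 of the 47, against 6.25%. Without Cre- MPTP 1, 8 genes were lower in Cre+ mice, where 3.18% of all genes were called in either direction: Ifitm3, Oasl2, Ifi44, Herc6, Irf9, Lgals3bp, Slfn8 and Stat2. Both calls with all libraries were lost in 11 of the 13 fits that left out 1 library, with adjusted p from 0.0508 to 0.159 for Lgals3bp and from 0.0541 to 0.152 for Bst2. Lgals3bp kept the call only without Cre- MPTP 1 or 2, and Bst2 only without Cre- MPTP 2 or 3. The Bst2 difference without Cre- MPTP 1 was -1.08 (SE 0.28, adjusted p = 0.0541) and not called.

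The direct test of a difference in response, the interaction of genotype and MPTP, called 0 of the 47 with edgeR, where 0.0103% of all genes were called. At an unadjusted p under 0.05, 6 genes responded less in Cre+ mice, against 3.22% of all genes, and 1 responded more, against 2.54%. DESeq2 also called 0, against 1.15%, and limma voom called 5, against 3.56% of all genes. The interaction was below 0 for 33 of the 47 and above 0 for 14, where 49.7% of all genes were above, and the 95% interval included 0 for 40. It was -1.15 (95% interval -2.09 to -0.21) for Irf7, -0.78 (95% interval -1.63 to 0.08) for Ifitm3, -1.11 (95% interval -2.17 to -0.04) for Oasl2 and -0.42 (95% interval -1.27 to 0.42) for Isg15. For Oas1a and Ifi27l2a it was 0.23 (95% interval -0.79 to 1.26) and 0.23 (95% interval -1.18 to 1.63). The intervals of Irf7 and Oasl2 lay below 0 before adjustment over genes, and the other 4 include a response of equal size as well as a difference of more than 1 log2 unit. The smallest adjusted p of the interaction among the 47 was 0.538, and 0.0609 without Cre- MPTP 1, where 1.03% of all genes were called.

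In Saline mice no difference between the genotypes was called in these genes. The median log2 difference was -0.01, and edgeR, DESeq2 and limma voom each called 0 of the 47, where they called 0%, 0.0103% and 0.0155% of all genes. EdgeR on the 2 groups alone called 0 of 44, against 0.0327%. At an unadjusted p under 0.05 edgeR gave 1, Ifi35, with a log2 difference of -0.57 (SE 0.23), against 0.444% of all genes. The 3 Cre+ Saline libraries lay below the 3 Cre- Saline libraries for Ifi27, Ifi27l2a and Ifi35, against 5.71% of all genes.

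The spread between mice was shared by many of the genes. Among the Cre+ MPTP mice, replicate 3 was the highest for 34 of the 47 and replicate 2 the lowest for 30. Replicate 3 lay above all 6 Saline libraries for 47 of 47 genes and replicate 2 for 33, where 15.2% and 19.6% of all genes did. Among the Cre- MPTP mice, replicate 1 was the lowest for 35 genes but the highest for 5, among them Bst2 and Cmpk2. It lay above all Saline libraries for 27 of the 47, where 38.1% of all genes did. The other two lay above for 45 and 44, against 22.9% and 18.5%. Without Cre- MPTP 1, the MPTP and Saline libraries did not overlap in both genotypes for 34 genes, against 2.75% of all genes. Phf11b, which passed the low-count filter only through MPTP libraries, is among the 34.

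A list of 40 further genes of the interferon pathway was examined beside the 47. Of 10 interferon genes, namely Ifnb1, Ifna1, Ifna2, Ifna4, Ifna5, Ifne, Ifnk, Ifnl2, Ifnl3 and Ifng, none passed the filter and 7 had 0 counts in every library. Ifna2 had 5 counts in all libraries together, all of them in Saline mice, Ifnk 4 and Ifnl3 1. The other 30 had a median log2 fold change of 0.52 in Cre- and 0.24 in Cre+ mice. In Cre- mice 7 of the 30 rose (2.23% of all genes did), and in Cre+ mice 0 did with edgeR (0%), 5 at an unadjusted p under 0.05 (2.7%). The receptor subunits were not among them: Ifnar1 changed by 0.18 and Ifnar2 by 0.76 log2 units in Cre- mice, and the latter was at 52.6 CPM in Cre- MPTP 1 and 14.3 to 21.2 in the other 12.

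Zbp1, an interferon-induced sensor of Z-form nucleic acid that binds RIPK3, was at 0.159, 0.312 and 0.511 CPM in Cre- Saline, 4.77, 6.50 and 4.82 in Cre- MPTP, 0.394, 0.325 and 0.343 in Cre+ Saline and 2.77, 2.07, 3.64 and 1.64 in Cre+ MPTP. All 7 MPTP libraries lay above all Saline libraries. Zbp1 had a log2 fold change of 4.01 (SE 0.41, adjusted p = 0.000628) in Cre- and 2.82 (SE 0.39, adjusted p = 0.0598) in Cre+ mice. Calls in Cre- mice also included the feedback genes Socs3 (4.64) and Ptpn6 (1.45), the RNA receptor Tlr7 (1.69), the adaptor Myd88 (1.07) and the kinase Ikbke (1.76). Of the 30, Socs3, Myd88 and Ikbke were lower in Cre+ than in Cre- MPTP mice, where 1.03% of all genes were lower. Their log2 differences were -3.19 (adjusted p = 0.0231), -1.09 (adjusted p = 0.0384) and -1.40 (adjusted p = 0.0236). EdgeR on the 2 groups alone called 0% of all genes in this contrast, and fits without Cre- MPTP 1 are not given for this list.

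Of 15 genes typical of interferon gamma (guanylate-binding proteins, immunity-related GTPases, Cxcl9, Ciita and Nlrc5), 8 rose in Cre- mice (2.23% of all genes did), 0 in Cre+ mice (0%) and 12 in the averaged response (2.02%). At an unadjusted p under 0.05, 14 of the 15 were higher in Cre+ mice, against 2.7% of all genes. Their median log2 fold change was 1.58 in Cre- and 1.12 in Cre+ mice. For 7 of the 15 no MPTP library overlapped with Saline in either genotype, against 1.52% of all genes. Gbp2, a guanylate-binding protein, was at 4.68, 3.36 and 4.38 CPM in Cre- Saline, 27.9, 58.1 and 26.6 in Cre- MPTP, 4.38, 4.19 and 5.56 in Cre+ Saline and 8.20, 23.9, 7.23 and 7.97 in Cre+ MPTP. Nlrc5, the activator of MHC class I genes, was at 0.992, 0.937 and 1.86 CPM in Cre- Saline, 5.31, 13.3 and 9.21 in Cre- MPTP, 1.34, 1.59 and 1.10 in Cre+ Saline and 4.99, 4.76, 5.46 and 3.47 in Cre+ MPTP. Both had all MPTP libraries above all Saline libraries. Ciita, its counterpart for class II genes, was at 0.913, 0.898 and 1.68 CPM in Cre- Saline, 0.759, 1.27 and 1.58 in Cre- MPTP, 1.54, 1.87 and 1.71 in Cre+ Saline and 2.07, 1.90, 1.69 and 1.72 in Cre+ MPTP. Its groups overlapped, and its averaged log2 fold change was 0.10 (adjusted p = 0.903). Ifng itself had 0 counts in all 13 libraries, which does not exclude a level too low to be counted at these depths.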

How the data were processed

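RNA was measured in whole midbrain of 13 mice. The authors prepared stranded total RNA libraries, used Trimmomatic 0.36 for trimming and STAR 2.5.2b for alignment to GRCm38, and took unique hits per gene with featureCounts of Subread 1.5.2. The deposited values are raw counts per gene, without normalization, and the strand setting is not given in the sources used here. Symbols were assigned to 48970 of 49315 gene IDs.

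From the counts, edgeR 4.0.16 (R 4.3.3) gave quasi-likelihood tests with TMM scaling from 1 model of the 4 groups. Genes with 10 or more counts in 3 or more of the 13 libraries were kept (19360). Calls are at a Benjamini-Hochberg adjusted p, over all these genes, under 0.05. The test for both genotypes adjusted the larger p of each gene that was higher in both. The standard error is the absolute log2 fold change over the square root of F. Alternatives were DESeq2 1.42.0, limma 3.58.1 voom with sample quality weights, other filters and scalings, fits to 2 groups, a replicate block and each library left out. Each sample is a separate animal. With 11489150 to 29397278 counts per library, genes below about 1 CPM rest on few counts. Levels are printed per library for the genes called in a contrast, those not overlapping in both genotypes, the 3 largest and 3 smallest averaged responses and the transcription factors. The members, the other gene lists and the tests were chosen with earlier results of these data known. The scripts were tested on simulated data. Promoter windows were matched by symbol to RefSeq (GRCm38.p6), and shared stretches of 100 bases were counted in GENCODE M21 transcripts. The raw reads were not used here, and 1 gene of the pathway list is not reported here.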

Additional observations from a re-analysis of the deposited data

Results flagged for a closer look

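In the group of 4 Cre+ MPTP mice, replicate 3 lay apart from the other three, by a gap to its nearest neighbour that, as a share of the group's range, is above Dixon's 95% critical value, for 4 of the 47 genes. Ifit3 was at 39.3 CPM in that mouse and 18.4 in the next (gap 0.883 of the range). Rtp4 was at 10.3 and 5.10 CPM (0.869). Ddx58 was at 13.5 and 9.72 CPM (0.832), and Ddx60 at 4.70 and 3.17 CPM (0.945). Chance flags about 1 in 20 groups, and the share of all genes tested that pass this rule was not computed. The 4 genes are thus not read as a result about the list. They come from 1 library, whose total and whose muscle, choroid plexus and erythrocyte markers were not the highest of its group. The cause was not tested.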

How the results depend on the processing

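The direction of the members' response hardly moved, and the number of calls did. Among values of single genes under alternatives, 2563 kept their side of the threshold and their direction, 234 came to pass it, 202 no longer passed and 13 changed sign. The sign changes were in Cre- mice for Ifit2 (-0.11 without Cre- MPTP 2 and -0.15 without Cre- MPTP 3), Sp100 (0.28 with voom, 0.16 without Cre- MPTP 1, 0.05 without Cre- Saline 3, 0.17 without Cre- MPTP 1 and Cre+ MPTP 4), Slfn5 (0.22, 0.32 without Cre- MPTP 1, 0.33 without the pair) and Ly6e (0.19, 0.0034 and 0.015), and in the averaged response for Slfn5 (-0.036 without Cre- MPTP 2). With 1 library or the pair left out, these values ranged in Cre- mice from -0.15 to 0.50 for Ifit2, -0.31 to 0.17 for Sp100, -0.65 to 0.33 for Slfn5 and -0.26 to 0.015 for Ly6e, and in the averaged response from -0.036 to 0.45 for Slfn5.

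Members called higher in Cre- mice, 15 in all libraries, were 31 with DESeq2, 40 with voom, 5 with edgeR on the 2 groups, 41 without Cre- MPTP 1 and Cre+ MPTP 4, and 10 to 40 when each library was left out. In Cre+ mice, 0 became 12 with DESeq2, 24 with voom, 2 on the 2 groups, 2 without a filter, 7 without the pair and 0 to 7 over the libraries left out (7 without Cre- MPTP 1). The averaged response gave 45 with voom, 42 without the pair and 16 to 42 over the libraries left out (28 in all libraries), 16 being without any 1 of Cre+ Saline 1, 2 or 3 or Cre- Saline 2. Both genotypes gave 8 with DESeq2, 11 with voom, 2 without a filter, 7 without the pair and 0 to 6. Genotype under MPTP gave 10 with DESeq2, 21 with voom, 0 on the 2 groups, 1 without a filter, 7 without the pair and 0 to 8. Genotype in Saline stayed at 0. The interaction gave 5 with voom and 0 over all libraries left out. Genes not overlapping in both genotypes were 36 without the pair and 19 to 34 over the libraries left out, against 23.

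The labels number the mice within each group and state no pairing. Over 18 pairs of same-numbered mice the correlation of deviations was -0.18 to 0.18, and 3 exceeded 0.1. Such correlations cannot show whether the samples were paired, for instance by a weak shared batch. With the replicate block, 11 members were called in Cre- mice, 0 in Cre+, 20 in the averaged response and 0 between genotypes under MPTP. Counting error is largest for Oas3, Oasl1, Phf11b and Mx1, which had under 1 CPM in every Saline library.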
